A study of Homo sapiens with 4 samples.

Results

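The regions described here are the wide H3K27ac peaks of control cells that had no counterpart after SMARCB1 knockdown. They were selected on measured values, as control H3K27ac peaks wider than 1 kb that shared not even 1 base with any knockdown H3K27ac peak. They number 927 of the 33489 control H3K27ac peaks on the autosomes other than 17 and on X. The H3K27ac ChIP-seq used SK-Hep1, a line from a human hepatic adenocarcinoma. Its cells stably carried an shRNA against SMARCB1 (shSMARCB1) or a control shRNA (shCon) and had been selected with puromycin. A further ChIP-seq library profiled SMARCB1 itself in the same line, without a stated shRNA, and a labelled input library was not analysed here. Each of these 3 groups had 1 library, so no value below was checked in a replicate, and knockdown was not tested against control. The peak lists hold no measure of SMARCB1 RNA or protein, so the knockdown itself was not checked.

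H3K27ac marks nucleosomes at active promoters and enhancers and is laid down mainly by the acetyltransferases p300 and CBP. SMARCB1 is a core subunit of the canonical BAF and PBAF forms of the SWI/SNF chromatin remodelling complexes, which use ATP to move nucleosomes. In other cell systems these complexes keep enhancers accessible, and enhancer acetylation can be lost when SMARCB1 is absent.

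Control peaks of every width lacked a knockdown counterpart in 5992 of 33489 cases, or 17.9% (17.5 to 18.3%, 95% Wilson interval). Among those wider than 1 kb the share was 927 of 23862, or 3.88% (3.65 to 4.14%). In the mirror comparison, 601 of 22419 knockdown peaks over 1 kb lacked a control counterpart, or 2.68% (2.48 to 2.90%). All intervals cover the counting of peaks only. The knockdown library held 10203310 tags and the control library 13235203, with 55.07% and 53.78% of them in peaks. The caller required 10 tags in knockdown cells and 11 in control cells, which at equal depth made the knockdown threshold 1.18 times the control one. Both lists were called against the same control input. The part of depth, threshold and shared input in the loss of these peaks was not tested. Gene ends of 26 hepatocyte genes were acetylated for 8 in knockdown cells and 7 in control cells, and those of 27 mesenchymal genes for 20 in each library. For 22 endothelial genes the count was 5 in each library, and for 24 epithelial genes it was 10 in knockdown cells and 12 in control cells. Over all 19821 coding genes the share with an acetylated end was 62.1% in knockdown cells and 63.5% in control cells. In the same order it was 30.8% and 26.9% of the hepatocyte genes and 41.7% and 50% of the epithelial genes. It was 22.7% of the endothelial genes and 74.1% of the mesenchymal genes in each library.

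The 7 sequences printed next show the gene starts that lay in control-only peaks. They belong to the genes with a listed start among the widest such peaks, the widest at gene ends and the widest with a SMARCB1 peak. Each runs 5′ to 3′ on the strand of the gene over 300 bases, of which 250 lie before the start and 50 from it on, and comes from the RefSeq promoter table of GRCh38.p14. Capitals mark the GC box GGGCGG on either strand, where its reverse complement reads CCGCCC. They also mark the CCAAT box, which in reverse complement reads ATTGG, and the TATA box, which reads TATAAA. Where GC boxes of GABBR2 overlap they form a single capital run.
DHRS3: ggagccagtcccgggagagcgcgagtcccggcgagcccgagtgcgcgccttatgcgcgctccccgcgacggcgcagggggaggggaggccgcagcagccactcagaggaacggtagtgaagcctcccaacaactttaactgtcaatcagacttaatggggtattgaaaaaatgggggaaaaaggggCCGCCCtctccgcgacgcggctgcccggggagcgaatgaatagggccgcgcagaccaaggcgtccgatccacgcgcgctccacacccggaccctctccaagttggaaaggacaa
GABBR2: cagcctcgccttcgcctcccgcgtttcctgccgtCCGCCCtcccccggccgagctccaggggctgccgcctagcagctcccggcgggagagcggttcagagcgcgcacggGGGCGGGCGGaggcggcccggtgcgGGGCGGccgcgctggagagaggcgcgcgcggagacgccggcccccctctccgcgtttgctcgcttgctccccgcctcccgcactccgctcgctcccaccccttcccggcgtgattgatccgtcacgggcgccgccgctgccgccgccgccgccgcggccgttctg
NRG2: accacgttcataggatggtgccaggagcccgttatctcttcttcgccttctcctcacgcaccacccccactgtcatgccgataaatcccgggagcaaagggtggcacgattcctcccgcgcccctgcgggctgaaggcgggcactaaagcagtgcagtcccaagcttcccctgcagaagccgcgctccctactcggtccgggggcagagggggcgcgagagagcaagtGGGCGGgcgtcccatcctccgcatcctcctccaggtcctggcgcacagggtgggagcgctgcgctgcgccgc
EPB41L4A: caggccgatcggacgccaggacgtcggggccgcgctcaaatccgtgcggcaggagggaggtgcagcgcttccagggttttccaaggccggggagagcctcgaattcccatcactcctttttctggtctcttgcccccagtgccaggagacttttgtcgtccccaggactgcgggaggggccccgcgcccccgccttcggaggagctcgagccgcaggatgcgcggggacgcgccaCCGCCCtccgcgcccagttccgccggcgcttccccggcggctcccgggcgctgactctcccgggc
PIEZO2: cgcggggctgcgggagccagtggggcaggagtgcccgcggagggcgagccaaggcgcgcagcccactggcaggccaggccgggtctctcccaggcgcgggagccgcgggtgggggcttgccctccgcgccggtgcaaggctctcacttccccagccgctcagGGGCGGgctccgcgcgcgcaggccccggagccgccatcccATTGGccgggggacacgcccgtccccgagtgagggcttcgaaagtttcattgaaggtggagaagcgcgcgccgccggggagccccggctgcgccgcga
INPP4B: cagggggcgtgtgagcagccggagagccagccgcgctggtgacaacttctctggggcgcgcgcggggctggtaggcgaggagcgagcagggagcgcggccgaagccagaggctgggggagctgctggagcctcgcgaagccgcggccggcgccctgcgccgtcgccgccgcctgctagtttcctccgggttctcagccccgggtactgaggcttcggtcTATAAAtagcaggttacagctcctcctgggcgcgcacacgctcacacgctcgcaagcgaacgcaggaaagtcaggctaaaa
SH3GL3: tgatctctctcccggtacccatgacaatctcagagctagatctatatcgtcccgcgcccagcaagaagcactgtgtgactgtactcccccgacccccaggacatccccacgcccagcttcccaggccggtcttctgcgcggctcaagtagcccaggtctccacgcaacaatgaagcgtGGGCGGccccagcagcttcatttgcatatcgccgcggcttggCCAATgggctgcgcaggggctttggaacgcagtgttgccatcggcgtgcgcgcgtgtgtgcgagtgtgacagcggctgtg
DHRS3 encodes a retinaldehyde reductase, and its window at chr1:12618161-12618460 (minus strand) held 1 GC box and 64.7% G and C. GABBR2 encodes a subunit of the GABA-B receptor, and its window at chr9:98708886-98709185 (minus strand) held 4 GC boxes and 79% G and C. NRG2 encodes a neuregulin, a ligand of ERBB receptors, and its window was chr5:140043250-140043549 (minus strand). EPB41L4A encodes a FERM-domain protein, with its window at chr5:112419228-112419527 (minus strand). PIEZO2 encodes a mechanically gated ion channel, and its window at chr18:11149520-11149819 (minus strand) held 1 GC box and 1 CCAAT box. INPP4B encodes a phosphoinositide phosphatase, and its window at chr4:142846252-142846551 (minus strand) was the only one of these with a TATA box, 31 bases before the start. SH3GL3 encodes an endophilin, and its window at chr15:83447091-83447390 (plus strand) held 1 GC box and 1 CCAAT box.

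These windows were rich in CpG, as were most starts in control-only peaks and most coding starts. Of 66 coding starts in control-only peaks over 1 kb, 48 had a ratio of observed to expected CpG of at least 0.6, or 72.7% (61.0 to 82.0%). The share was 87.2% (86.6 to 87.8%) of 11775 starts in shared control peaks over 1 kb and 26.0% of 8475 starts in no H3K27ac peak of either library. Over all 20990 coding starts it was 62.0%, which the interval for starts in control-only peaks included. The median ratio was 0.756 for starts in control-only peaks, 0.851 for starts in shared peaks, 0.320 for unmarked starts and 0.737 for all coding starts. The 5 lowest ratios in control-only peaks were those of SAMD13 at 0.0731, HLA-DMA, a class II peptide-loading chaperone chain, at 0.146, TSPAN14 at 0.206, FAM13A at 0.223 and CCSER2 at 0.239.

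**Figure D1:**
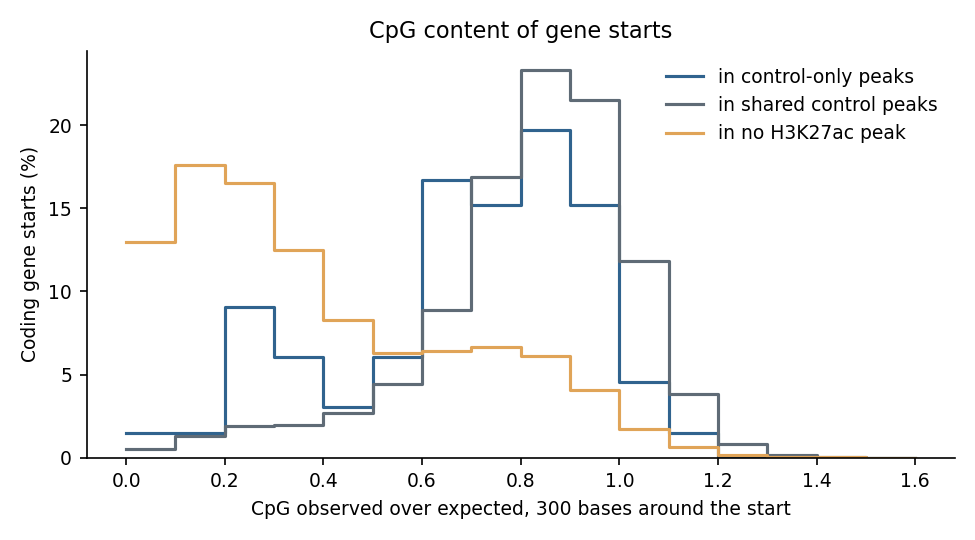
Distribution of the ratio of observed to expected CpG over 300 bases around each coding start (x axis), as a percentage of the starts in each set (y axis), for starts in control-only peaks over 1 kb, in shared control peaks over 1 kb and in no H3K27ac peak. The 66 starts in control-only peaks have a median of 0.756, below the 0.851 of shared starts and above the 0.320 of unmarked starts, with a smaller group below 0.6. The median over all coding starts, not drawn, is 0.737.

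Motif letters were searched on both strands of the same windows, each motif on its own, so that overlapping motifs were both counted. The GC box GGGCGG was present at 68.2% (56.2 to 78.2%) of starts in control-only peaks, against 73.4% in shared peaks, 31.3% in unmarked starts and 56.1% of all coding starts. CCAAT was present at 30.3%, 34.7% and 34.9% in the same order of sets, against 34.6% of all. TATAAA was present at 1 of 66 starts in control-only peaks, or 1.52%, against 4.55% in shared peaks, 16.3% in unmarked starts and 9.39% of all. The TEAD letters GGAATG were present at 13.6% (7.34 to 23.9%) against 12.2% of all starts, and the AP-1 letters TGANTCA at 3.03% (0.835 to 10.4%) against 6.12% of all. The CRE letters TGACGTCA were present at 1.52% (0.268 to 8.10%) against 2.25% of all. These are matches of letters in a 300-base window and say nothing about binding. The sequence inside the control-only peaks away from gene starts was not analysed here.

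Control-only peaks over 1 kb were narrow for their class. Their median width was 1326 bp, with 50% of them between 1143 and 1600 bp, against 2235 bp for the 22935 shared control peaks over 1 kb and 1409 bp for the 601 knockdown-only peaks. Together they covered 1.35 Mb, against 67.4 Mb for the shared peaks. Width was part of the selection, so these values are a description. Just inside the width limit lay peaks of 1004 bp in TRIO, 1004 bp in CAPN2 and 1005 bp near CDC7. Just outside it lay control-only peaks of 997 bp near GNG12, 997 bp near ATP6V1G3 and 998 bp in ARRB1, and 5065 control-only peaks in all were at or under the limit.

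The widest control-only peak was 4860 bp inside TENM3, a teneurin of neuronal wiring, at chr4:181684740-181689599. No knockdown peak lay within 267262 bp of it, and neither library had any other acetylation within 10 kb. The next, of 4777 bp at chr12:52221974-52226750, lay 6493 bp from KRT7, a keratin of simple epithelia. Its flanks of 10 kb to either side held 7713 bp of acetylation in knockdown cells and 12442 bp in control cells. The pair therefore differed in setting, TENM3 alone and KRT7 within a larger acetylated stretch.

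Inside DNMBP, a guanine nucleotide exchange factor for CDC42, a peak of 4196 bp lay at chr10:99983280-99987475. Its flanks held 6871 bp of acetylation in knockdown cells and 11712 bp in control cells. Inside SLC7A5, which encodes the light chain of an amino acid transporter, a peak of 3678 bp at chr16:87860776-87864453 ended 773 bp from knockdown acetylation. Its flanks held 9665 bp in knockdown cells and 13514 bp in control cells. Both genes thus kept knockdown acetylation within 2 kb of the missing peak.

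On chromosome 8, a peak of 3336 bp at chr8:127874598-127877933 lay in the non-coding gene PVT1, 131647 bp from MYC, its nearest coding gene. Its flanks held 5567 bp of acetylation in knockdown cells and 8885 bp in control cells. A peak of 3329 bp at chr8:126374392-126377720 lay 174723 bp from its nearest coding gene, LRATD2, with no knockdown peak within 156851 bp. RIPK4, a kinase of epidermal differentiation, had a peak of 3161 bp at chr21:41766009-41769169, and a peak of 3143 bp lay inside DST, a large linker between cytoskeletal filaments. SBF2, a myotubularin-related pseudophosphatase, and CBLN2, a secreted synaptic organiser, each hosted a peak of 2948 bp. Of the 12 widest, only those at TENM3, near LRATD2, at DHRS3 and at CBLN2 had no other peak of either library within 10 kb.

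Control-only peaks lay mainly inside genes and away from gene ends. Of the 927, 521 lay wholly inside a protein-coding gene record, or 56.2% (53.0 to 59.4%), against 33.1% (32.5 to 33.7%) of shared control peaks over 1 kb and 48.9% (44.9 to 52.9%) of knockdown-only peaks. Within 1 kb of either end of a coding gene lay 94 control-only peaks, or 10.1% (8.36 to 12.3%), against 42.1% (41.5 to 42.8%) of shared peaks and 4.66% (3.24 to 6.65%) of knockdown-only peaks. The gap to shared peaks was present within each of 4 width classes. In the narrowest class the gene-end share was 11.5% for control-only and 26.7% for shared peaks, and above 2000 bp it was 8.60% and 45.5%. The annotation used gives gene records and starts but no exons, so introns and exons were not separated.

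**Figure D2:**
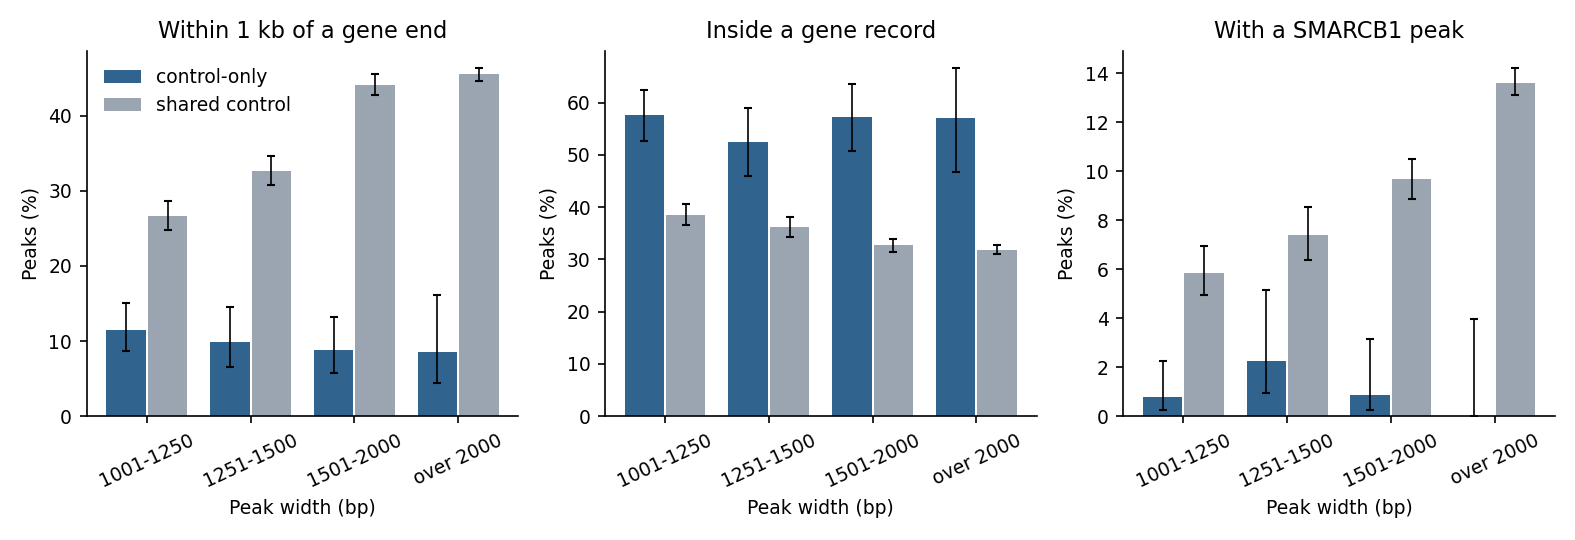
Percentage of peaks (y axis) within 1 kb of a gene end, inside a gene record and with a SMARCB1 peak, by width class in bp (x axis), for control-only peaks over 1 kb (left bar of each pair) and shared control peaks (right bar), with 95% Wilson intervals. In each class the control-only bar is lower for gene ends (11.5, 9.87, 8.81 and 8.60%) and SMARCB1 (0.781, 2.24, 0.881 and 0%) and higher for gene interiors.

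Listed starts gave the same picture, over chromosomes other than 8, for which no starts were at hand. Starts were listed for 14988 of the 18664 coding genes on the chromosomes kept, so genes elsewhere lacked one too. Peaks at unlisted starts were counted as holding none. A coding start lay in 58 of 865 control-only peaks, or 6.71% (5.22 to 8.57%), against 37.6% (37.0 to 38.3%) of shared peaks and 3.01% (1.89 to 4.77%) of knockdown-only peaks. Control-only peaks were 0.698% (0.540 to 0.901%) of the control peaks over 1 kb that held a coding start. They were 7.27% (6.66 to 7.93%) of those inside a gene record without a listed start and 4.99% (4.48 to 5.54%) of those outside gene records. Peaks across a gene boundary without a listed start, 15 of 865 control-only peaks and 6.90% of shared peaks, are not in these rates. The median distance to the nearest listed coding start was 34010 bp for control-only peaks, 12834 bp for shared peaks and 65318 bp for knockdown-only peaks. Over 100 kb from any coding gene lay 95 of these 865 control-only peaks, against 7.44% of shared peaks and 20.0% of knockdown-only peaks.

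The 58 peaks with a coding start held starts of 59 genes, since COL4A3 and COL4A4 share one. These collagen IV chains of basement membranes run in opposite directions, and the peak of 1302 bp at chr2:227163824-227165125 held both starts. No knockdown peak lay within 159457 bp of it. DAPK1, a death-associated kinase, had both of its listed starts in a peak of 1659 bp at chr9:87497473-87499131, with no knockdown peak within 212792 bp. Its flanks held 0 bp in knockdown cells and 659 bp in control cells. HTRA1, a secreted serine protease, had its start in a peak of 1582 bp, with the nearest knockdown peak 30831 bp away. PTGER2, a prostaglandin E2 receptor, had its start in a peak of 1241 bp, with the nearest knockdown peak 40188 bp away. COL4A3, COL4A4, DAPK1, HTRA1 and PTGER2 were chosen for description after their values were seen.

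Some of these genes had another start marked in the knockdown. Of the 59 genes, 26 had another listed start, and for 10 of them a start outside the control-only peak lay in a knockdown peak. INPP4B had 6 listed starts, of which 1 lay in the control-only peak and 3 others in knockdown peaks. DHRS3 had 3 listed starts, of which 1 lay in a control-only peak of 3060 bp at chr1:12616965-12620024 and 1 other in a knockdown peak. The nearest knockdown peak to that DHRS3 peak was 19436 bp away. For 33 genes every listed start lay in a control-only peak, but most of them had only 1 listed start. These included GABBR2, EPB41L4A and PIEZO2, with 1 listed start each. Their nearest knockdown peaks were 85952 bp from the GABBR2 peak, 256634 bp from the EPB41L4A peak and 169758 bp from the PIEZO2 peak.

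Among the 12 widest control-only peaks at gene ends, those of DHRS3, GABBR2 (2125 bp), NRG2 (2065 bp), EPB41L4A (1991 bp) and PIEZO2 (1958 bp) held a listed start. Those of SNRPE, ARHGAP35 and CCND1 held no listed start, and starts of MYC and RIPK4 were not at hand. The RIPK4 peak crossed an end of its gene record, yet the nearest listed coding start was 94133 bp away. Whether it held the RIPK4 start was therefore not settled. The peaks of these 5 genes all had knockdown acetylation within 10 kb. SNRPE, a core spliceosomal protein, had a peak of 2618 bp with 2437 bp of flanking acetylation in knockdown cells and 3127 bp in control cells. ARHGAP35, a GTPase-activating protein, had a peak of 2460 bp with 14646 bp of flank in knockdown cells and 16178 bp in control cells. CCND1, which encodes cyclin D1, had a peak of 1969 bp at chr11:69654148-69656116, with flanks of 5641 bp in knockdown cells and 5941 bp in control cells. MYC had a peak of 1823 bp at chr8:127741787-127743609, across the end with the higher coordinate of its gene record, chr8:127735434-127742951. That peak lay 936 bp from a knockdown peak, and its flanks were 7377 bp in each library. RIPK4 had flanks of 1786 bp in knockdown cells and 2548 bp in control cells. COL9A2, a collagen IX chain, and PSG6, a pregnancy-specific glycoprotein, had no knockdown acetylation within 10 kb of peaks of 2406 and 2029 bp, and 475 and 1295 bp of it in the control.

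Few control-only peaks overlapped SMARCB1. Of the 927, 10 held a SMARCB1 peak, or 1.08% (0.587 to 1.97%), against 2619 of 22935 shared control peaks over 1 kb, or 11.4%, and 1.50% (0.790 to 2.82%) of knockdown-only peaks. The control-only share was lower in every width class, at 0.781% against 5.86% of shared peaks in the narrowest class and 0 of 93 (up to 3.97%) against 13.6% of shared peaks above 2000 bp. Within 10 kb of a SMARCB1 peak lay 8.31% (6.70 to 10.3%) of control-only peaks, against 16.7% (16.2 to 17.2%) of shared and 5.32% (3.80 to 7.42%) of knockdown-only peaks. For the SMARCB1 library, neither depth nor caller settings were at hand.

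The widest control-only peak with SMARCB1 was 1811 bp inside RNF228 at chr2:222318273-222320083, with no knockdown acetylation within 120280 bp. KCNQ1, a cardiac and epithelial potassium channel, hosted one of 1550 bp, 57030 bp from the nearest knockdown peak. The INPP4B start peak (1443 bp) and the SH3GL3 start peak (1305 bp) also held SMARCB1, as did a peak of 1325 bp that lay 217172 bp from EIF3H, a translation initiation factor subunit. PACSIN1, a membrane-bending adaptor of endocytosis, hosted one of 1266 bp. These 6 had no acetylation of either library within 10 kb. The other 4 had some in both libraries. They lay in LARGE2, a glycosyltransferase, with 2589 bp in knockdown cells and 2729 bp in control cells, and in CYB5R3, a cytochrome b5 reductase, with 3865 bp in knockdown cells and 5659 bp in control cells. The last lay in SFSWAP, a splicing regulator, with 3142 bp in knockdown cells and 3311 bp in control cells, and in LMNA, which encodes lamins A and C, with 9922 bp in knockdown cells and 9286 bp in control cells.

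Acetylation was often retained near the missing peaks. The nearest knockdown peak was at a median of 8608 bp, with 25% of control-only peaks within 2614 bp and 25% beyond 33830 bp. A knockdown peak lay within 10 kb of 488 of the 927, or 52.6% (49.4 to 55.8%), and within 1 kb of 78. Around shared control peaks over 1 kb, knockdown acetylation other than their own counterparts lay within 10 kb of 44.9% (44.3 to 45.5%). Absence of overlap was the selection itself, so these distances are a description. In the mirror set, 35.9% (32.2 to 39.9%) of the 601 knockdown-only peaks had a control peak within 10 kb, and the median distance was 21893 bp. No knockdown peak lay within 50 kb of 161 control-only peaks, or 17.4%, against 30.0% of knockdown-only peaks with no control peak within that distance. The 6 widest of those 161 lay in TENM3, in CBLN2, in ASTN2 (2716 bp), in CEP350 (2505 bp) and, 2 of them, near LRATD2. ASTN2 encodes a neuronal astrotactin and CEP350 a centrosomal protein.

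Acetylation around the missing peaks was summed over flanks of 10 kb to either side, with overlapping flanks counted more than once. Knockdown peaks covered 1876215 bp and control peaks 2498991 bp, a ratio of 0.751. The mean per control-only peak was 2024 bp in knockdown cells and 2696 bp in control cells. Around shared control peaks over 1 kb the ratio was 0.838, with means of 1254 bp in knockdown cells and 1496 bp in control cells. For shared peaks, stretches under the knockdown peaks that overlap them were left out in both libraries. Around knockdown-only peaks the ratio was 1.44, with means of 1358 bp in knockdown cells and 943 bp in control cells. The knockdown covered fewer flanking bases than the control at 481 control-only peaks, more at 90 and as many at 356, of which 354 had no peak of either library. These sums are partly set by the selection, since other control-only peaks in the flanks lack knockdown acetylation by definition. With single-library peaks of either list left out of the flanks, an alternative chosen after the data were seen, the ratio was 0.826 around control-only peaks, with means of 1981 bp in knockdown cells and 2397 bp in control cells. It was then 0.879 around shared peaks and 1.15 around knockdown-only peaks. Such sums also move with how much was called in each library.

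**Figure D3:**
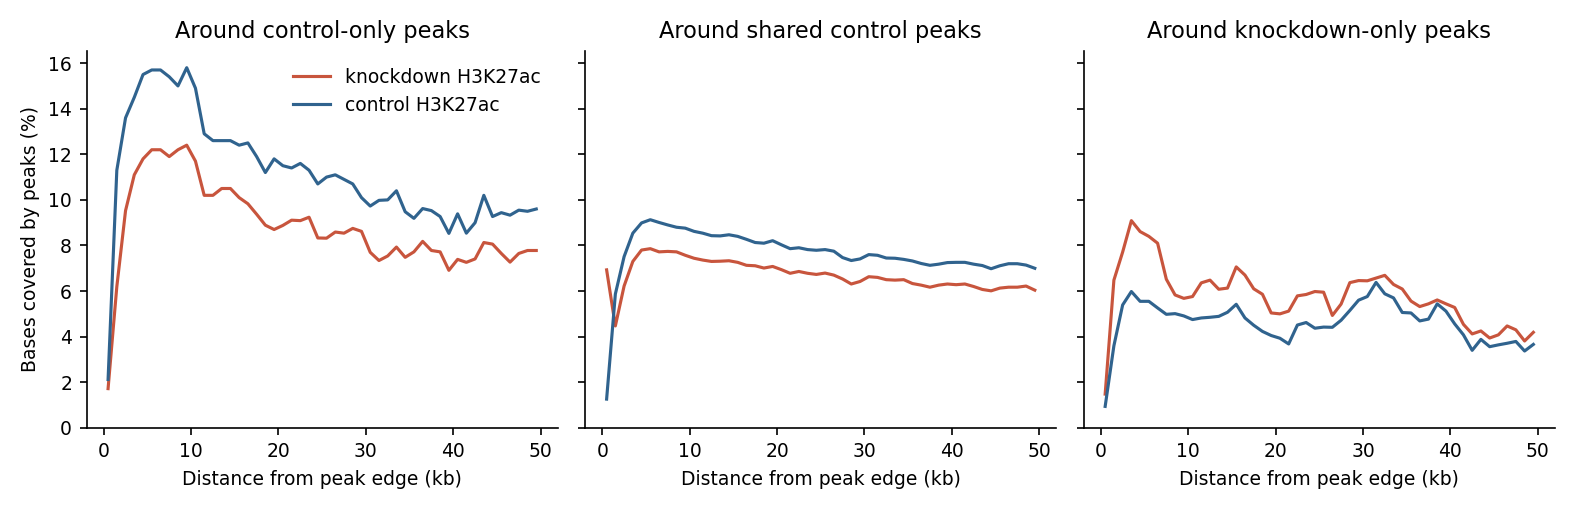
Percentage of bases covered by knockdown and control H3K27ac peaks (y axis) in 1 kb bins out to 50 kb from the edges of control-only peaks over 1 kb, shared control peaks over 1 kb and knockdown-only peaks over 1 kb (x axis, kb), the peaks themselves left out. Between 5 and 6 kb, 12.2% of bases were covered in the knockdown and 15.7% in the control around control-only peaks, and 7.86% and 9.13% around shared peaks. Around shared peaks, knockdown peaks that reach past the edge of the control peak they overlap were not left out. Their part in the high first knockdown bin was not measured.

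Control-only peaks had company in the control as well. Another control peak lay within 10 kb of 558, or 60.2% (57.0 to 63.3%), against 48.1% (47.4 to 48.7%) of shared control peaks over 1 kb. For shared peaks, control peaks under an overlapping knockdown peak were not counted, so the shares were not measured alike. A shared control peak of any width lay within 10 kb of 472 control-only peaks, or 50.9%. Another control-only peak of any width lay within 10 kb of 237, or 25.6%. For 86 the other control peaks within 10 kb were all control-only.

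Some control-only peaks over 1 kb lay in groups. With a gap of at most 100 kb, the 927 formed 795 chains, of which 91 held 2 or more and 7 held 4 or more. Another control-only peak over 1 kb lay within 100 kb of 223 of them, or 24.1% (21.4 to 26.9%), against 14.0% (13.5 to 14.4%) of shared control peaks over 1 kb with such a peak within 100 kb. By number of such peaks the ASAP1 chain came first and the VXN and MYBL1 chain second, both on chromosome 8, and 5 chains on chromosomes 8, 6, 10, 16 and 1 tied at 4. ASAP1, a GTPase-activating protein for ARF that acts at focal adhesions, held 8 over 208 kb at chr8:130214831-130422899. That span held 12 knockdown peaks and 33 control peaks, of which 26 were control-only, and 24732 bp were covered in knockdown cells and 55580 bp in control cells. The knockdown thus covered 44.5% of the control length there.

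At VXN and MYBL1 lay 5, at chr8:66477122-66586606; MYBL1 encodes a MYB-family factor. That span had 6 knockdown peaks and 11 control peaks, with 31862 bp covered in knockdown cells and 44840 bp in control cells. A chain of 4 lay at chr8:126374392-126455670, with no coding gene in the span and LRATD2 nearest. There the knockdown had 0 peaks, and the control had 5 peaks over 9745 bp, all control-only. This was the one among the 7 chains of 4 or more with no knockdown acetylation.

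DST hosted 4 within 26.6 kb, at chr6:56741366-56767919, with 9143 bp covered in knockdown cells and 19764 bp in control cells. TSPAN14, a tetraspanin that binds the protease ADAM10, held 4 at chr10:80467625-80518842, with 19663 bp covered in the knockdown, 30934 bp in the control and 3 SMARCB1 peaks in the span. CMIP, an adaptor of lymphocyte signalling, held 4 at chr16:81532661-81648807, with 2860 bp covered in knockdown cells and 15755 bp in control cells, or 18.2%. One of these CMIP peaks held the miRNA hairpin MIR7854, 1 of 3 hairpins in control-only peaks among 1463 on the chromosomes kept. BCAR3, an adaptor that binds p130Cas, held the remaining chain of 4, where the knockdown covered 63.7% of the control length. In each of these spans the groups were chosen for their missing peaks, so the lower knockdown length is a description.

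**Figure D4:**
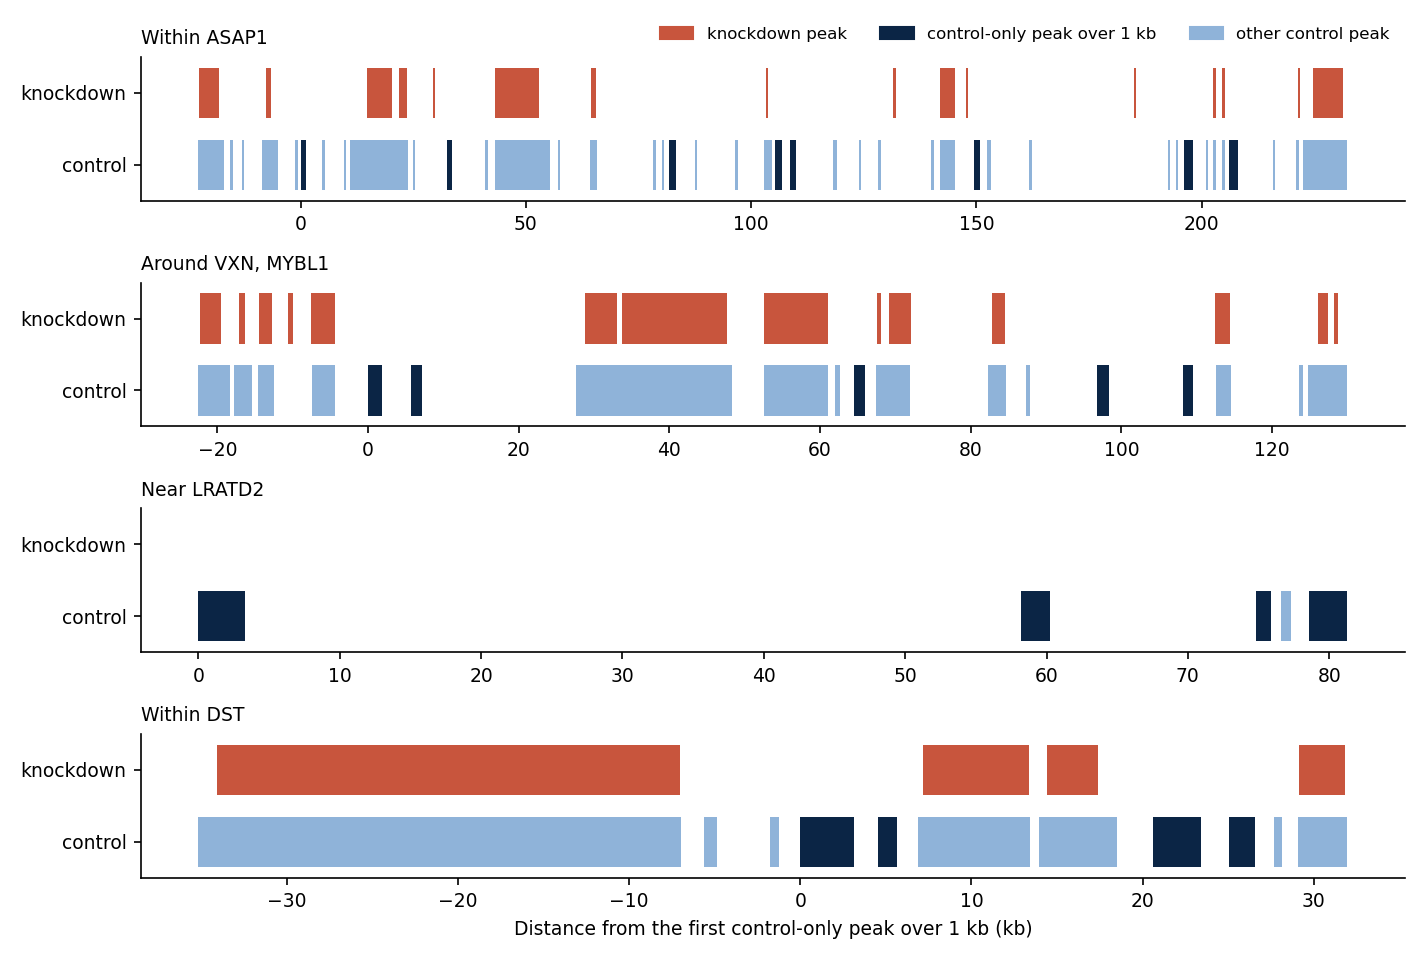
Maps of the chains at ASAP1 and at VXN and MYBL1, which hold most control-only peaks over 1 kb, and of 2 of the 5 chains that tie at 4, showing H3K27ac peaks of the knockdown (upper track) and control (lower track) against distance in kb from the first control-only peak over 1 kb. Peaks beside each chain are drawn too. The ASAP1 span, first to last control-only peak over 1 kb, holds 12 knockdown and 33 control peaks, and the span near LRATD2 holds 0 knockdown and 5 control peaks.

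In all, 441 genes hosted a control-only peak over 1 kb, 58 of them 2 or more and 7 of them 4 or more. Their median length was 120 kb, against 79.9 kb for the 4135 genes that hosted a shared control peak over 1 kb and 25.3 kb for all coding genes. Of the 441, 302 also hosted a shared peak over 1 kb, or 68.5%. ASAP1 hosted 8, DST 5, and TENM3, EXT1, TSPAN14, CMIP and BCAR3 hosted 4 each. EXT1, which polymerises heparan sulfate, kept 144163 bp of acetylation in the knockdown, against 194436 bp in the control. DNMBP, ARHGAP35 and CD44 hosted 3 each. CD44, the hyaluronan receptor, had 20862 bp covered in knockdown cells and 36142 bp in control cells, with control-only peaks of 1548, 1987 and 2190 bp.

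Of the other genes with 3 each, SLCO3A1, DAPK1 and COL15A1 had little or no acetylation within the gene record in the knockdown. They were named for that after their values were seen. SLCO3A1, an organic anion transporter, had 530 bp covered in knockdown cells and 6692 bp in control cells. DAPK1 had 0 bp in knockdown cells and 5724 bp in control cells. COL15A1, a basement membrane collagen, had 0 bp in knockdown cells and 5589 bp in control cells. With 10 kb around the gene record added, the knockdown covered 1443 bp at SLCO3A1, 3001 bp at DAPK1 and 0 bp at COL15A1. The control then covered 8058, 9489 and 5589 bp. These 3 genes contrast with EXT1 and CD44, where control-only peaks lay among acetylation seen in both libraries. All these control lengths include the control-only peaks themselves, which lack knockdown acetylation by the selection. Control-only peaks over 1 kb made up 5180 bp at SLCO3A1, 4564 bp at DAPK1, 3906 bp at COL15A1, 7001 bp at EXT1 and 5725 bp at CD44. The contrast is therefore a description.

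Counted by host or nearest coding gene, 789 of 18664 genes had a control-only peak over 1 kb, or 4.23%, and 665 of the 789 also had a shared control peak over 1 kb, or 84.3%. A knockdown-only peak over 1 kb belonged to 52 of them, which is 6.59% of the 789 and 10.4% of the 502 genes with such a peak. Because long genes with many peaks have more chances, gene lists were read per peak, as the share of a list's control peaks over 1 kb that were control-only, beside the 3.88% over all. Of 35 lists with 50 or more such peaks, 5 had an interval wholly above that value and 1 wholly below it. Peaks of 1 gene are not independent, and the lists were written with earlier results known. Lists also shared genes, whose peaks counted in each. AXL and IGFBP3 stood in both the YAP and TEAD list and the receptor tyrosine kinase list. CCN1 stood in both the YAP and TEAD list and that of other matrix proteins. The shares were also not matched for position. Outside chromosome 8, control-only peaks were 0.698% of control peaks over 1 kb holding a coding start. They were 7.27% of those inside a gene record without a listed start and 4.99% of those outside gene records. The part of position in the list shares was not tested.

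The list with the highest share among those 35 was that of YAP and TEAD genes and targets, which encode the transcriptional end of the Hippo pathway and genes it switches on. Of its 195 control peaks over 1 kb, 25 were control-only, or 12.8% (8.84 to 18.2%), while 3.31% (1.53 to 7.04%) of its knockdown peaks were knockdown-only. ASAP1 supplied 9 of the 25, and without it the share was 16 of 171, or 9.36% (5.84 to 14.7%). The 25 belonged to 14 of the 32 genes, and 30 of the 32 also had a shared peak. YAP1, the coactivator, hosted a peak of 1551 bp at chr11:102119890-102121440. Its flanks held 3362 bp in knockdown cells and 3368 bp in control cells.

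TEAD1, a DNA-binding partner of YAP, hosted peaks of 1529 and 1210 bp. WWTR1, which encodes the coactivator TAZ, hosted one of 1256 bp with no other acetylation within 10 kb in either library. PTPN14, a phosphatase that binds YAP, hosted one of 1568 bp, with flanks of 5930 bp in knockdown cells and 5349 bp in control cells. CRIM1, a transmembrane BMP-binding protein, hosted 3, of 1551, 1412 and 1177 bp, each with flanks shorter in the knockdown than in the control. CCN1, a matricellular protein, had one of 1108 bp at 18507 bp from the gene. Others were far away, at 92388 bp from TGFB2 and 428711 bp from IGFBP3, and no link of a peak to its nearest gene was measured.

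The list of receptor tyrosine kinases and ligands had 19 of 224 control peaks over 1 kb that were control-only, or 8.48% (5.50 to 12.9%). Of its knockdown peaks, 4.93% (2.70 to 8.83%) were knockdown-only. The 19 belonged to 15 of 86 genes, and without NRG1, which supplied 3, the share was 8.08% (5.04 to 12.7%). Those 15 included the IGF-binding proteins IGFBP3 and IGFBP7 and the intracellular factors FGF12 and FGF14, which are neither such receptors nor their ligands. NRG4 counted through a peak of 1066 bp that held the start of TMEM266. The share without these genes was not computed. VEGFC, a lymphatic growth factor, hosted one of 2309 bp, with flanks of 2880 bp in knockdown cells and 3754 bp in control cells, and lay 194968 bp from another of 1130 bp. GAS6, the ligand of AXL and related receptors, hosted 2, of 2111 and 1581 bp, with flanks of 4829 and 5259 bp in knockdown cells and 8769 and 10006 bp in control cells. AXL itself hosted one of 1093 bp. A peak of 2147 bp lay 117840 bp from NTRK3, a neurotrophin receptor, and EGFR, the receptor for epidermal growth factor, hosted one of 1519 bp with flanks of 8790 bp in knockdown cells and 10641 bp in control cells.

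Collagens had 9 of 111, or 8.11% (4.32 to 14.7%), and 5.88% of their knockdown peaks were knockdown-only. COL15A1 supplied 3 of the 9, and without it the share was 6 of 108, or 5.56% (2.57 to 11.6%), an interval that included 3.88%. COL9A2 (2406 bp), COL15A1 (1513, 1300 and 1093 bp), COL16A1 (1334 bp) and COL4A3 with COL4A4 (1302 bp) held the widest. Other matrix proteins also had 9 of 111, against 1.14% (0.201 to 6.16%) of knockdown peaks. LOXL2 supplied 3 of them, and without it the share was 6 of 101, or 5.94% (2.75 to 12.4%), which likewise included 3.88%. THBS1, which encodes thrombospondin 1, hosted one of 1586 bp, with flanks of 2442 bp in knockdown cells and 4727 bp in control cells. LOXL2, a lysyl oxidase that crosslinks collagen, hosted 3, of 1395, 1109 and 1053 bp. HSPG2, which encodes perlecan, had one of 2011 bp at 18205 bp from the gene, and EFEMP1, a fibulin, hosted one of 1212 bp.

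G protein-coupled receptors had 23 of 267, or 8.61% (5.81 to 12.6%), and 5.16% (3.04 to 8.62%) of their knockdown peaks were knockdown-only. Without ADGRA3, which supplied 3, the share was 7.60% (4.98 to 11.5%). The widest were near or in ADRA1B, an adrenergic receptor (2056 bp), the olfactory receptor genes OR5B3 (1939 bp) and OR11H4 (1765 bp), and OXTR, the oxytocin receptor (1592 bp). Zinc finger genes were the list below the overall share, with 8 of 608, or 1.32% (0.668 to 2.57%), and 1.41% of their knockdown peaks were knockdown-only. ZBTB7A (1982 bp), ZNF184 (1504 bp), ZNF365 (1351 bp) and ZNF532 (1199 bp) held the widest.

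Lists with intervals that included 3.88% covered most other families. Genes for actin, myosin and their partners had 17 of 280, or 6.07%, with MYO9B (1983 bp), VCL, which encodes vinculin (1826 bp), ACTN4 (1801 bp) and TLN2 (1726 bp). The TGF-beta and BMP pathway had 10 of 163, or 6.13%, with FSTL4 (2339 bp), GDF10 (2116 bp), the receptor ACVR1 (2106 bp) and SMAD3 (1815 bp). Solute carriers had 20 of 466, or 4.29%. Homeobox genes had 9 of 183, or 4.92%, among them CUX1 (2124 bp), ZFHX4 (1651 bp) and PBX4 (1572 bp). RUNX1, a runt-domain factor, had the widest of the SOX, FOX, GATA, RUNX, KLF and ETS factors (1958 bp), which had 13 of 295, or 4.41%.

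Cytosolic ribosomal protein genes had 1 control-only peak of 100, at RPS23 (1187 bp), and SWI/SNF subunit genes 1 of 57, at PBRM1 (1643 bp), which encodes a PBAF subunit. Hypoxia and glycolysis genes had 0 of 65 (up to 5.58%), Polycomb subunits 0 of 48 (up to 7.41%), replication-dependent histones 0 of 37 (up to 9.41%) and endothelial genes 0 of 22 (up to 14.9%).

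Control-only peaks were spread over all chromosomes kept. The highest share of control peaks over 1 kb was on chromosome 8, at 62 of 1079, or 5.75% (4.51 to 7.30%), followed by chromosome 4 at 5.61% (4.34 to 7.21%). The lowest was on chromosome 14, at 12 of 698, or 1.72% (0.986 to 2.98%), followed by X at 1.90% (1.12 to 3.23%). Knockdown-only peaks were 3.66% (2.67 to 5.00%) of knockdown peaks over 1 kb on chromosome 8, 3.23% (2.16 to 4.80%) on 14 and 3.52% (2.35 to 5.22%) on X. On chromosomes 7 and 19 control-only peaks were 3.89% and 3.02%, and knockdown-only peaks 1.27% and 0.712%. DNA copy number in the 2 cell populations was not measured here, and its part in these shares was not tested.

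**Figure D5:**
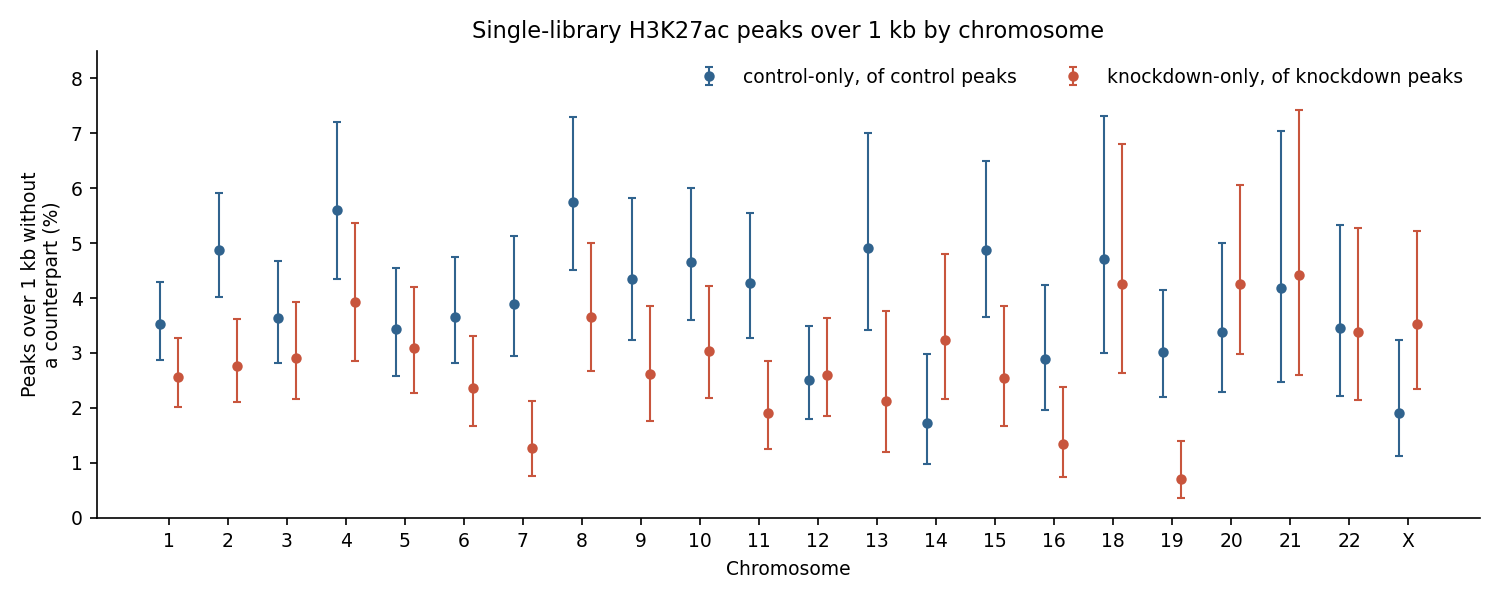
Percentage of peaks over 1 kb without a counterpart (y axis) on each chromosome kept (x axis), for control-only peaks out of control peaks (left point) and knockdown-only peaks out of knockdown peaks (right point), with 95% Wilson intervals. Control-only shares run from 1.72% on chromosome 14 to 5.75% on chromosome 8.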

How the data were processed

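Peak lists of 1 library per group were used. The authors called the H3K27ac peaks with HOMER in its histone style, per the file headers, from 500 bp windows at least 1000 bp apart, with 4-fold signal over 1 control input for both lists. Bowtie2, HOMER and hg38 are named in the submitters' processing notes, without versions. The deposited lists give positions, and their score column holds the same placeholder for each H3K27ac peak, so peak strength could not be compared. The headers give 10203310 knockdown tags and 13235203 control tags, and thresholds of 10 and 11 tags, or 9.80 and 8.31 when scaled to 10000000 tags. No value has a replicate.

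Chromosome 17 was left out, except in an alternative and in the counts of marker genes. Members were control peaks over 1000 bp with no base shared with a knockdown peak, checked with bedtools 2.31.1, which also gave 927. Interval code was tested on 5000 simulated peaks, all placed as simulated. Positions are 1-based. RefSeq GRCh38.p14 supplied 19821 coding genes (153 alternate or unplaced records left out) and starts for 15812 of them, none on chromosome 8. A gene end is within 1 kb of either end of a record. Shares have 95% Wilson intervals, and no test was run. Python 3.11.15, NumPy 2.4.6, pandas 2.3.3 and matplotlib 3.10.9 were used.

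Named genes were those of the 12 widest members, the 12 widest at a gene end, the 8 widest with SMARCB1, the 6 widest with no knockdown peak within 50 kb, the 6 largest chains, up to 10 genes hosting most members, up to 4 per gene list by width, and 3 on either side of the width limit. Sequences came from the same genes, up to 8. Some items under this rule are not reported here. SAMD13, HLA-DMA, FAM13A, CCSER2, NRG1, ADGRA3, TEAD1, WWTR1, CCN1, TGFB2, IGFBP3, AXL, EGFR, SFSWAP, LMNA and the genes the report says so of are outside it and were chosen after their values were seen. So were IGFBP7, NRG4, FGF12, FGF14 and TMEM266. The members, the 45 gene lists and the rule were chosen with earlier results of these data known. Alternatives varied the overlap that counts as shared, the width limit, merging, chromosome 17, windows, gene set and chain gap. Flanks without single-library peaks and lists without their leading gene were added after the data were seen.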

Additional observations from a re-analysis of the deposited data

How the results depend on the processing

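Of 69 alternative values for 15 results, 44 stayed within the counting interval or 1.5 times the reported count, and 25 moved. The flank ratio has no interval, so any change in its printed digits, however small, was counted as a move. The number of control-only peaks was 320 above 1500 bp and 1901 above 750 bp. Their median width was then 1764 and 982 bp, and 1383 bp with peaks within 1 kb merged first. The flank ratio, knockdown over control, was 0.737 with a knockdown peak within 500 bp also taken as a counterpart, 0.753 with overlaps under 10% not taken as one, 0.739 above 1500 bp, 0.777 above 750 bp, 0.752 with chromosome 17, 0.736 after merging, 0.776 over 25 kb and, chosen after seeing the data, 0.826 with single-library peaks left out of the flanks. The median distance to a knockdown peak was 10745 bp after merging and 6988 bp above 1500 bp. The share with knockdown acetylation nearby was 48.5% after merging, 56.6% above 1500 bp and 70.0% within 25 kb. The gene-end share was 12.8% with a window of 2.5 kb and 18.7% with all RefSeq genes, which also raised the share inside a gene to 64.9%. The share with another member near was 17.4% at 50 kb, 36.6% at 250 kb, 15.3% above 1500 bp and 35.1% above 750 bp. Leaving its leading gene out of each of the 5 gene lists above the overall share, also chosen after seeing the data, brought the intervals of collagens and other matrix proteins down to include that share. Shifts in member number and width with the width limit follow from what is counted. So do shifts in shares with window, chain gap and gene set. The cause of the others was not tested, among them the shorter distance to knockdown acetylation above 1500 bp. The share with SMARCB1 did not move beyond its interval under any alternative run.

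No paired analysis was possible because each group had 1 library and no result comes from a test. Lists without peak strength cannot show whether a missing peak lay just under the threshold, and the knockdown library was the shallower.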
